A study of Homo sapiens with 6 samples.

Results

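The data described here are the gene levels of unirradiated MDA-MB-231 cells, measured by RNA sequencing in 3 of the 6 libraries of the series. The 3 libraries were chosen because their labels give the treatment as control. MDA-MB-231 is an established human cell line labelled as breast adenocarcinoma, and the study's methods describe the cells named SCR as carrying a non-targeting shRNA (shSCR), while the labels give the genotype as WT. The cells received 0 Gy, and RNA was collected at the 24 h time point of the irradiation experiment and made into polyA-enriched libraries. The other 3 libraries, from cells given 10 Gy, were not used. The group is a single stable cell line in culture, and no source states whether replicates 1, 2 and 3 came from separate cultures, so the spread between them may be technical. With 1 group there is no comparison to test, and all values below are descriptions.

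Breast epithelium has an inner luminal layer, marked by keratins 8, 18 and 19 and by the estrogen and progesterone receptors, and an outer basal layer, marked by keratins 5 and 14 and by the transcription factor p63. Tumors of the breast are sorted by which of these programs they keep. Carcinoma cells can also lose the junction protein E-cadherin and gain vimentin and related genes, a shift called epithelial-mesenchymal transition, and MDA-MB-231 is widely used as a model of the mesenchymal end of that range.

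Levels are given in FPKM, that is, fragments per kilobase of gene scaled to sequencing depth. For nearly all genes the length is that of all annotated exons together, which can exceed the length of the transcript in use. Ranks and ratios between genes therefore depend on the annotation as well as on the RNA. A gene with a mean of at least 1 FPKM over the 3 libraries is called expressed below. The whole reads recovered from the FPKM summed to 21928560, 15643641 and 21856761 on genes in replicates 1, 2 and 3. Replicate 2 was therefore the shallowest. Between 11950 and 12057 genes reached 1 FPKM in a library. On log2(FPKM + 1), the libraries correlated across the 11985 expressed genes with Pearson's r between 0.992 and 0.993, which only describes the libraries, since genes are not independent replicates. Where a gene is at 0, the limit given is the level that 3 reads over all 3 libraries would make, and it covers counting error only.

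Most annotated genes were silent, and a small number carried much of the RNA. Of 58735 genes in the table, 31552 (53.7%) were at 0 in all 3 libraries and 11985 (20.4%) were expressed. Among the 19951 protein-coding genes, 10426 (52.3%) were expressed and 4358 (21.8%) were at 0 throughout, with a median of 1.33 FPKM. Just 19 protein-coding genes reached 1000 FPKM, and 363 reached 100. The 10 highest genes of any kind held 9.32% of the summed FPKM, the 100 highest held 27.8%, and 587 genes held 50%. The minimum of 1 FPKM was reached in some libraries but not in all by 1182 genes.

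**Figure D1:**
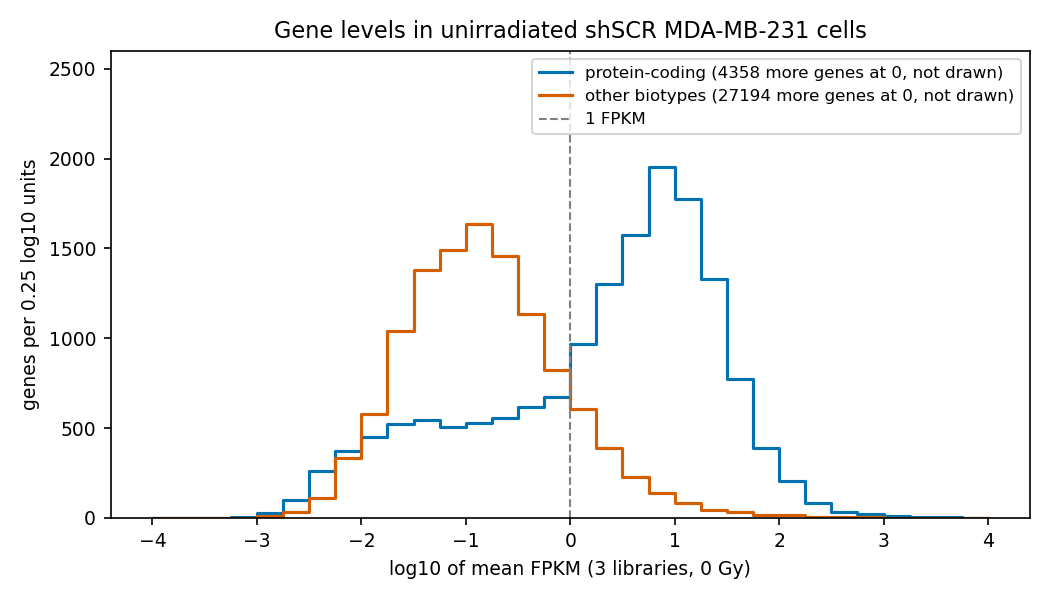
The number of genes in each step of 0.25 log10 units of mean FPKM, for protein-coding genes and for genes of all other biotypes, with the 4358 and 27194 genes at 0 left out. Protein-coding genes pile up to the right of the dashed line at 1 FPKM, and other biotypes lie mostly to its left.

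Of the 20 protein-coding genes with the highest means, 9 are encoded by the mitochondrial genome and 11 by the nucleus. The highest was MT-CO1, a subunit of cytochrome c oxidase, at 3268, 4094 and 4065 FPKM in replicates 1, 2 and 3, or 3809 ± 469 FPKM (SD, n = 3). Its partner subunits MT-CO2 and MT-CO3 had means of 3314 and 2691 FPKM, and MT-ATP6 of ATP synthase had 2465 FPKM. The NADH dehydrogenase genes MT-ND3, MT-ND4L, MT-ND4, MT-ND2 and MT-ND1 followed with means between 1205 and 2060 FPKM. The 13 protein-coding genes of the mitochondrial genome together held 8.11% of the summed FPKM and 1.96% of the reads, because they are short. Replicate 1 had the lowest share of FPKM from this group, at 6.99%, against 8.70% and 8.68% in replicates 2 and 3.

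The nuclear gene at the top of the ranking was FTL, the light chain of the iron store ferritin. Its values were 3847, 3491 and 3496 FPKM, or 3611 ± 204 FPKM (SD, n = 3), with replicate 1 above the others. FTH1, the ferritin heavy chain, had 459 FPKM, and the ratio of FTL to FTH1 per kilobase of gene was 7.87 ± 0.0967 (SD, n = 3). FTL and FTH1 both have processed pseudogenes in the genome, and reads that fit several copies could be assigned to either, which makes this ratio uncertain.

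Genes of the cytoskeleton and of calcium binding came next. S100A6, a calcium-binding protein of the S100 family, measured 2639, 2366 and 2187 FPKM. TMSB10, a thymosin that binds actin monomers, measured 2023, 1644 and 1770 FPKM. The cytoplasmic actins ACTG1 and ACTB had means of 1604 and 1413 FPKM, and their ratio was 1.14 ± 0.0174 (SD, n = 3), nearly the same in each library. The 6 actin and thymosin genes held 2.27% of the summed FPKM, and the 29 S100 and annexin genes, of which 20 were expressed, held 1.61%.

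Translation and glycolysis supplied several more of the highest genes. EEF1A1, which delivers transfer RNAs to the ribosome, had 1582 ± 74.9 FPKM (SD, n = 3), and RPL41, a small ribosomal protein, had 1047 ± 70.8 FPKM (SD, n = 3). Of 88 genes named for cytosolic ribosomal proteins, 84 were expressed, and together they held 7.07% of the summed FPKM. GAPDH, a glycolytic enzyme, measured 1179, 1188 and 1124 FPKM, and 18 of 19 glycolysis genes were expressed.

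The remaining genes among the 20 were SPANXB1, IGFBP4 and MT2A. IGFBP4 is a secreted protein that binds insulin-like growth factors, and it measured 1220, 1129 and 1059 FPKM. MT2A, a metallothionein that binds zinc and copper, measured 1014, 901 and 804 FPKM. Replicate 1 was the highest and replicate 3 the lowest for these genes. SPANXB1 is described with the cancer-testis genes. The next nuclear genes were HMGA1, an architectural chromatin protein, at 850 FPKM, HSP90AB1, a heat shock chaperone, at 798 FPKM, RPS2, a ribosomal protein, at 776 FPKM, and CYR61, a secreted matrix protein, at 763 FPKM.

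**Figure D2:**
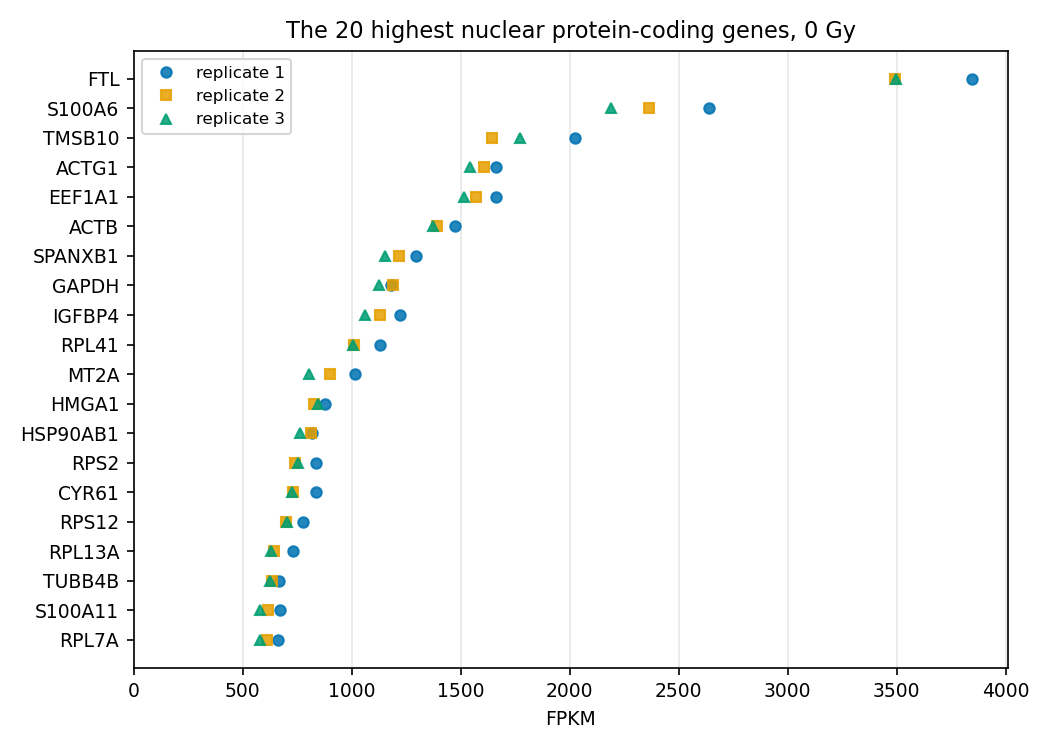
FPKM of the 20 nuclear protein-coding genes with the highest means, with a point for each of the 3 libraries. FTL stands apart at 3491 FPKM or more, and replicate 1 has the highest value for 19 of the 20 genes.

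The promoters of the abundant genes were read from RefSeq (GRCh38.p14) to see what the letters before their starts had in common. Shown are the 50 bases before the matched RefSeq start of each gene. For 3 genes among the 20 highest nuclear genes with an entry in the promoter table, they hold TATAAA, a form of the TATA box. For 3 other abundant genes, shown as examples, they do not hold these exact letters. Related forms, such as tatataag before EEF1A1 and TMSB10, were not counted. The shares below are therefore not shares of all TATA boxes. The stretches of GAPDH and MT2A lie inside the gene as annotated, which begins at chr12:6533927 and chr16:56608199. Other starts were not printed, so the GAPDH letters do not show that the promoter in use lacks TATAAA. Capitals mark TATAAA. The regions are chr17:40443400-40443449 on the plus strand for IGFBP4, chr16:56608534-56608583 on the plus strand for MT2A, chr19:3985464-3985513 on the minus strand for EEF2, chr19:48965259-48965308 on the plus strand for FTL, chr12:6535214-6535263 on the plus strand for GAPDH and chrX:141002544-141002593 on the plus strand for SPANXB1.
IGFBP4: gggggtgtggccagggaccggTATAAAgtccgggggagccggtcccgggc
MT2A: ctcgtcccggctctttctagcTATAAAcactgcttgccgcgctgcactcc
EEF2: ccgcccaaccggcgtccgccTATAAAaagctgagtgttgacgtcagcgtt
FTL: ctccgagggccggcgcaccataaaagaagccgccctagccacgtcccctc
GAPDH: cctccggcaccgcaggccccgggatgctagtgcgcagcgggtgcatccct
SPANXB1: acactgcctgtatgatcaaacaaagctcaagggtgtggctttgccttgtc

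The motif begins 29 bases before the start in IGFBP4 and MT2A and 30 bases before it in EEF2, the elongation factor that moves the ribosome along. Among nuclear protein-coding genes with a RefSeq promoter, TATAAA lay in these 50 bases on the gene's own strand in 64 of 4764 genes (1.34%) at 1 to under 10 FPKM. It lay there in 54 of 3601 (1.5%) at 10 to under 100 FPKM and in 21 of 288 (7.29%) at 100 FPKM and over. It lay there in 1.61% of all 8653 promoters of expressed genes and in 3.95% of all 15500 promoters matched. The overall share includes genes under 1 FPKM and rests on the 77.7% of nuclear protein-coding genes that matched. It therefore does not serve as a level for expressed genes. On the opposite strand the motif was in 0.336%, 0.472% and 2.08% of the same groups. The 21 genes of the highest group include the annexins ANXA1 and ANXA2, the stress factor ATF4, the chaperones CALR and P4HB, the redox protein TXN, S100A4 and 3 genes for histone variants, H2AFX, H2AFZ and H3F3B. The ratio of observed to expected CpG in the 300 bases around the start had medians of 0.839, 0.878 and 0.871 in these groups. Promoters of genes under 1 FPKM were not compared, because fewer than 80% of those genes had an entry. A match is a description of the letters and does not show that the site is used.

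Genes outside the protein-coding set were mostly at 0, and the highest of them share sequence with other genes or are very short. MT-RNR2, the large ribosomal RNA of the mitochondrion, had 1470, 1768 and 1625 FPKM despite the polyA enrichment, and MT-RNR1, the small one, had 524 FPKM. The transfer RNA genes MT-TC, MT-TN and MT-TP had 780, 609 and 301 FPKM, but each is 73 bases long or shorter, so that few reads make a high FPKM. RN7SL2, a component of the signal recognition particle, had 669 FPKM. Pseudogenes of ribosomal proteins, RPS28P7 at 704 FPKM, RPL9P9 at 478 FPKM and RPL39P3 at 332 FPKM, and AC116533.1 at 339 FPKM filled the other places among the 10 highest. Reads from the parent genes cannot be told apart from reads of such copies here. All 10191 processed pseudogenes held 2.42% of the summed FPKM and 0.358% of the reads.

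Long noncoding RNAs were low as a group. Of 7629 lincRNAs, 266 (3.49%) were expressed and 5160 were at 0. The highest was NORAD, which binds Pumilio proteins, at 121, 127 and 128 FPKM. SNHG5 and GAS5, hosts of small nucleolar RNAs, had 70.5 and 50.9 FPKM. GPX1, the glutathione peroxidase of the cytosol, is annotated as a polymorphic pseudogene in this gene release and had 176 FPKM. It was therefore not counted among protein-coding genes.

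The markers of breast lineage did not follow a single program. Their lists, and the others below, were chosen with earlier results of these data known. The shares of each list are therefore descriptions of that list only. Of the 20 genes on the hormone receptor and luminal list, 11 (55%) were expressed, 3 were at 0 and the median was 1.19 FPKM. For all protein-coding genes the share was 52.3% and the median 1.33 FPKM. The luminal keratins were well expressed. KRT18 measured 117, 108 and 103 FPKM, KRT8 had 95.0 ± 6.57 FPKM (SD, n = 3), and KRT19 measured 96.7, 86.8 and 89.2 FPKM. KRT18 and KRT8 pair in 1 filament, and their ratio was 1.15 ± 0.0157 (SD, n = 3). This ratio rests on gene lengths of 3218 and 6881 bases. By recovered reads over the 3 libraries KRT8 was the higher, with 38224 against 20537.

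The receptors of that list were close to absent. ESR1, the estrogen receptor, had 2, 2 and 3 recovered reads, or 0.00872 FPKM. PGR, the progesterone receptor, had 0 reads, which allows a level of up to 0.00334 FPKM. FOXA1, the pioneer factor of estrogen receptor binding, had 0, 3 and 2 reads. GATA3, a luminal transcription factor, was low but present in each library at 3.22, 3.12 and 2.81 FPKM. SPDEF, an ETS factor of luminal and secretory cells, was higher at 38.7, 34.3 and 32.7 FPKM, and XBP1, a factor of the secretory stress response, had 28.6 FPKM. ERBB2, the receptor HER2, measured 7.51, 6.76 and 6.97 FPKM. Its neighbours on 17q12 lay in the same range, from GRB7 at 0.873 FPKM to STARD3 at 12.4 FPKM.

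The basal and myoepithelial list had 5 of 24 genes (20.8%) expressed, 7 at 0 and a median of 0.0690 FPKM. For all protein-coding genes the share was 52.3% and the median 1.33 FPKM. The keratins that define the basal layer were not expressed. Of the 8 keratins on the list, 0 reached 1 FPKM and 4 were at 0. KRT5 had 0 reads, which allows up to 0.0120 FPKM, and KRT14 had 0, 0 and 2 reads. KRT17 had 0.0883 FPKM and KRT15, the highest of them, had 0.904 FPKM. TP63, which encodes p63, measured 0.151, 0.148 and 0.0929 FPKM.

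The expressed members of the basal list include surface, signalling and contractile genes. ITGB4, the integrin that anchors cells to laminin, measured 50.3, 49.3 and 46.0 FPKM. EGFR, the epidermal growth factor receptor, measured 26.4, 31.6 and 31.4 FPKM, with replicate 1 the lowest. FOXC1, a forkhead factor used as a basal-like marker, had 4.49 ± 0.199 FPKM (SD, n = 3), and MYLK, a kinase of contractile cells, had 3.66 FPKM. KIT, a receptor of luminal progenitors that also marks basal-like tumors, was at 0.

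Over the whole keratin family, 8 of 55 genes (14.5%) were expressed and 30 were at 0, beside 52.3% of all protein-coding genes expressed. The highest was KRT81, a hair keratin, at 609, 479 and 480 FPKM, with replicate 1 above the others. KRT7, a keratin of simple epithelia, had 121 FPKM, KRT80 had 57.1 FPKM, KRT10 had 27.1 FPKM and KRT86, another hair keratin, had 16.9 FPKM. KRT81 and KRT86 are close relatives in sequence, so the division of reads between them is uncertain.

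Genes on the mesenchymal list were mostly higher than those on the junction list, though both lists were chosen with earlier results known. Of 25 genes on the mesenchymal list, 16 (64%) were expressed, 1 was at 0 and the median was 2.55 FPKM. On the epithelial junction list, 8 of 22 (36.4%) were expressed, 2 were at 0 and the median was 0.683 FPKM. For all protein-coding genes the share was 52.3% and the median 1.33 FPKM. VIM, the intermediate filament vimentin, measured 312, 297 and 294 FPKM and ranked 76 among protein-coding genes. CDH1, which encodes E-cadherin, measured 0.273, 0.369 and 0.329 FPKM on 36, 35 and 44 reads and ranked 11692. The ratio of VIM to CDH1 was 1141, 804 and 895 in the 3 libraries.

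Other high genes of the mesenchymal list include surface and matrix proteins and also proteins inside the cell. Among the latter, S100A4, a calcium-binding protein of the S100 family, had 120 FPKM. AXL, a receptor tyrosine kinase linked to invasion, measured 254, 262 and 261 FPKM. MSN, which ties actin to the membrane, had 206 ± 5.52 FPKM (SD, n = 3), and MMP14, a membrane-bound matrix protease, had 170 ± 8.09 FPKM (SD, n = 3). FN1, fibronectin, had 27.7 FPKM, and CDH11, a cadherin of mesenchymal cells, had 7.75 FPKM.

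The transcription factors of epithelial-mesenchymal transition were unequal. ZEB1 had 8.23, 8.09 and 8.12 FPKM. SNAI2 and SNAI1 had 2.55 and 1.95 FPKM, and ZEB2 had 0.702 FPKM. TWIST1 had 0.00757 FPKM and TWIST2 was at 0. CDH2, which encodes the N-cadherin often used to mark the mesenchymal state, was also low, at 0.0474, 0.131 and 0.103 FPKM.

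The junction list was uneven as well. The epithelial splicing factor ESRP1 had 0.0457 FPKM and its relative ESRP2 had 0.999 FPKM, just under the minimum. GRHL2, a factor that maintains epithelium, had 0.00358 FPKM, and OVOL1 and RAB25 were at 0. The claudins of tight junctions were expressed, with CLDN4 at 23.4, 20.7 and 20.6 FPKM, CLDN7 at 5.41 FPKM and CLDN1 at 3.29 FPKM. PKP3, a protein of desmosomes, had 15.2 FPKM, and EPCAM, a general epithelial surface marker, had 1.44 FPKM.

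**Figure D3:**
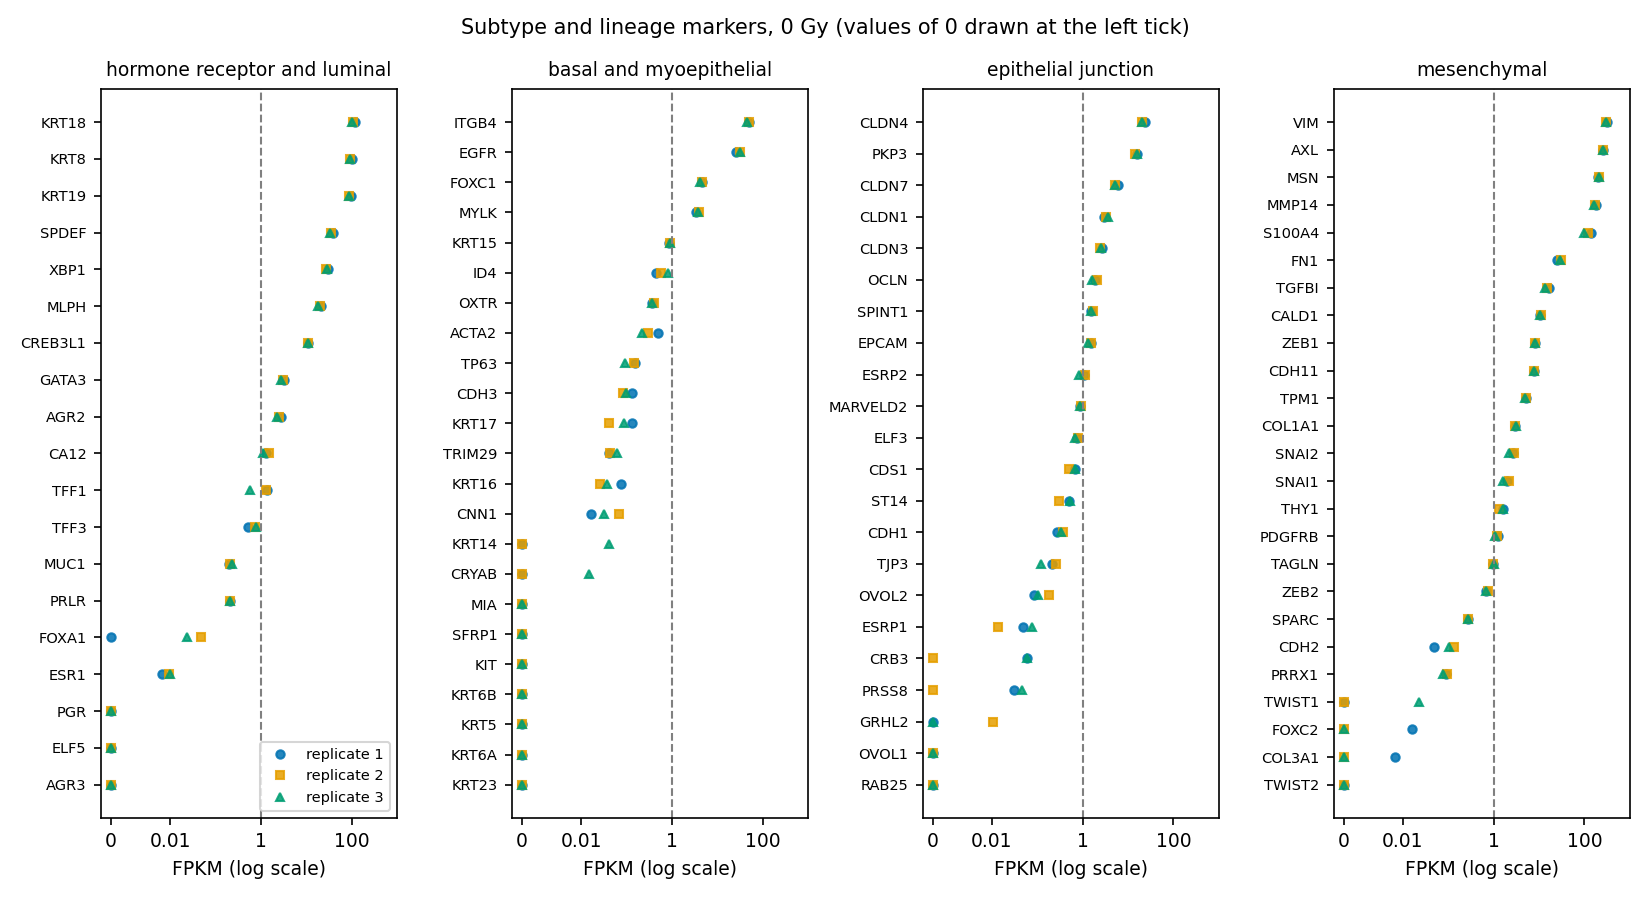
FPKM of members of the luminal, basal, junction and mesenchymal lists on a log scale, with a point for each of the 3 libraries, values of 0 at the left tick and the dashed line at 1 FPKM. Some members are not drawn, and over the whole lists 11 of 20, 5 of 24, 8 of 22 and 16 of 25 have a mean at or above the line. Of all protein-coding genes, 52.3% do. The lists were chosen with earlier results of these data known.

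CD44 and CD24 are surface proteins often read together, since high CD44 with low CD24 has been used to mark stem-like breast cancer cells. CD44 measured 76.3, 81.4 and 78.1 FPKM and CD24 measured 9.08, 10.1 and 9.44 FPKM. Their ratio was 8.24 ± 0.182 (SD, n = 3). These are RNA levels of whole libraries and do not measure surface protein. The mean of CD24, 9.55 FPKM, lay above the median of 8.43 FPKM for expressed protein-coding genes. SOX9, a factor of progenitor cells, had 21.4 FPKM and the integrin ITGA6 had 72.5 FPKM. ALDH1A3, an aldehyde dehydrogenase, had 2.32 FPKM, while ALDH1A1 had 0.00549 FPKM. The pluripotency genes NANOG, LIN28A and LIN28B and the surface protein PROM1 were at 0, and SOX2 had 0.355 FPKM.

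Among 35 receptor tyrosine kinases, 19 (54.3%) were expressed and 4 were at 0, with a median of 1.19 FPKM. That share is close to the 52.3% of all protein-coding genes. AXL led the family, followed by EPHA2, an ephrin receptor, at 190, 181 and 179 FPKM. MET, the receptor of hepatocyte growth factor, had 43.3 FPKM. The ratio of AXL to EGFR was 8.74 ± 0.765 (SD, n = 3), and that of EGFR to ERBB2 was 4.23 ± 0.629 (SD, n = 3). ERBB3 and ERBB4, the partners of ERBB2, had 0.426 and 0.00357 FPKM. FGFR1 had 11.8 FPKM and IGF1R had 2.80 FPKM, while KIT, NTRK3 and ROR2 were among the genes at 0.

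Of 34 cancer genes, 31 (91.2%) were expressed, with a median of 10.5 FPKM, beside 52.3% and 1.33 FPKM for all protein-coding genes. CCND1, the cyclin that drives entry into the cell cycle with CDK4, measured 155, 155 and 158 FPKM, while its relative CCND2 had 0.166 FPKM. MYC had 64.6 ± 1.55 FPKM (SD, n = 3). HRAS and NRAS, GTPases that pass on growth signals, had 63.8 and 40.2 FPKM. BRAF had 1.04 FPKM. The tumor suppressors RB1 and NF1 had 18.1 and 1.04 FPKM. RNA levels do not show whether a gene carries a mutation.

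CDKN2A and CDKN2B, inhibitors of CDK4 and CDK6, had 0 reads in all 3 libraries, which allows up to 0.0119 and 0.0127 FPKM. MDA-MB-231 is known for loss of this locus, and the genes around it on chromosome 9 were at 0 too. Of 26 protein-coding genes within 2 Mb of CDKN2A on either side, 24 were at 0. The others were MLLT3, a chromatin reader, and its neighbour FOCAD, a focal adhesion protein. MLLT3 had 1.36, 1.43 and 1.46 FPKM, and FOCAD had 0.355, 0.292 and 0.327 FPKM. From HACD4 to IZUMO3, 25 of 25 protein-coding genes over 3.55 Mb (chr9:20999515-24545946, GRCh38) were at 0. Many of these, such as the interferons, are silent in most cells. MTAP, an enzyme of methionine salvage, and KLHL9, a ubiquitin ligase adaptor, are active in many tissues and were at 0 as well, with limits of 0.00352 and 0.00900 FPKM. HACD4, an enzyme of fatty acid elongation, was at 0 with a limit of 0.00562 FPKM. RNA levels alone cannot tell a deleted gene from a silent one.

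**Figure D4:**
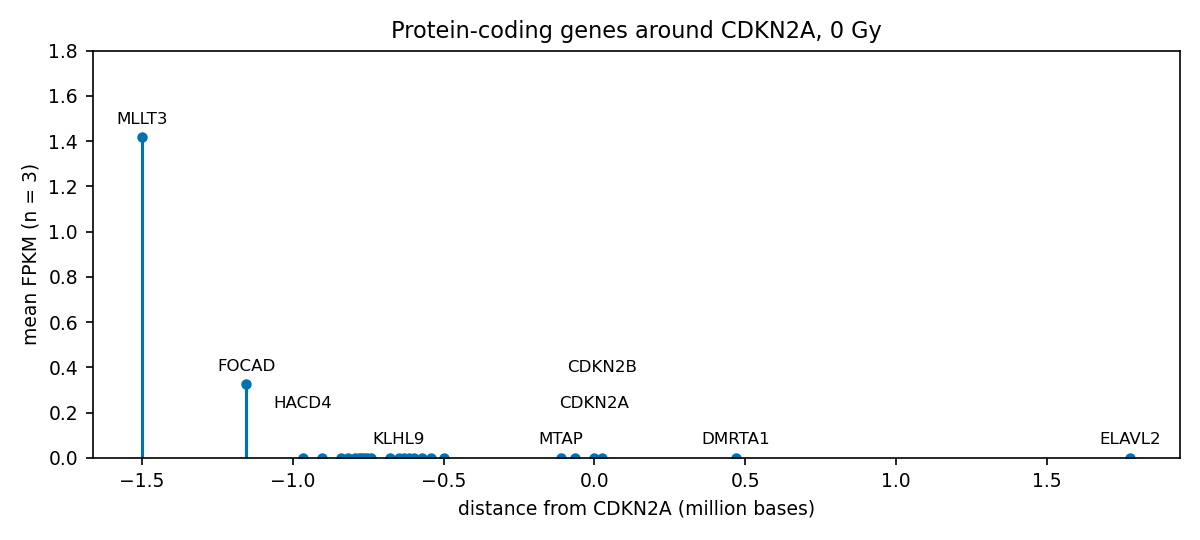
Mean FPKM of the 26 protein-coding genes within 2 Mb of CDKN2A, by distance from CDKN2A in Mb. Only MLLT3 (1.42 FPKM) and FOCAD (0.324 FPKM), both to the left of CDKN2A, rise above 0.

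Other silent stretches held families of tissue-restricted genes. The longest by gene number ran from OR4B1 to APLNR on chromosome 11, with 66 protein-coding genes of which 65 were at 0, mostly olfactory receptors. The next, from FLG2 to S100A7 on chromosome 1, held 48 genes, mostly of the skin barrier, of which 46 were at 0. Each gene of such a stretch had under 0.1 FPKM. In 7 classes of genes, most of them restricted to single tissues, 520 of 595 genes (87.4%) were at 0, beside 21.8% of all protein-coding genes. Olfactory receptors had 0 of 386 genes expressed and type I interferons had 17 of 17 at 0. Most of these interferon genes lie in the silent stretch around CDKN2A, so their place there cannot be told apart from ordinary silence. The only 2 expressed members of the 7 classes were KRTAP2-3 and KRTAP2-4, keratin-associated proteins of hair, at 7.16 and 1.43 FPKM.

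Markers of other tissues were mostly at or near 0. Over 6 lists of blood, endothelial, neuronal, liver to lung, muscle to bone and melanocyte markers, 9 of 85 genes were expressed and 35 were at 0. Of all protein-coding genes, 52.3% were expressed and 21.8% were at 0. The liver, kidney, gut and lung list had 0 of 16 expressed. PTPRC, the pan-leukocyte marker CD45, had 0, 1 and 1 reads, and the hemoglobin genes HBA1, HBA2 and HBB were at 0. CD14, a monocyte receptor, had 2.56, 1.31 and 2.01 FPKM, and PF4, a platelet chemokine, had 1.39 FPKM. The blood list together held 0.00178%, 0.00154% and 0.00153% of the summed FPKM.

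The endothelial list, with 4 of 10 genes expressed, held the highest of these. ESAM, an adhesion molecule of endothelium and platelets, measured 77.9, 73.7 and 73.2 FPKM, and ROBO4, a guidance receptor of vessels, measured 12.1, 11.7 and 11.3 FPKM. The defining endothelial genes were unequal. PECAM1 (CD31) and KDR (VEGFR2) had 1.22 and 1.00 FPKM, at or just above the minimum, CDH5 and VWF had 0.0877 and 0.00718 FPKM, and TEK was at 0. RUNX2, a factor of bone formation, had 5.84, 5.78 and 5.75 FPKM, while the bone gene BGLAP had 0.0782 FPKM. MITF, the melanocyte factor, had 2.23 FPKM beside TYR at 0.

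Cancer-testis genes are normally active in germ cells and can reappear in tumors. On this list 6 of 23 genes (26.1%) were expressed and 13 were at 0, beside 52.3% of all protein-coding genes expressed. SPANXB1, a sperm nuclear protein encoded on the X chromosome, measured 1296, 1215 and 1152 FPKM on 12958, 8761 and 11704 reads and ranked 15 among all protein-coding genes. It is short, and SPANX genes are nearly identical copies of each other, so its level may include reads of relatives. MAGEA3 measured 34.2, 34.0 and 33.5 FPKM, PAGE5 had 22.98 FPKM, and MAGEA6, which is nearly identical to MAGEA3, had 0.313 FPKM. MAGEA1, MAGEA4, PRAME and CTAG1B, common in other tumors, were at 0. XAGE1B had 2.16, 2.85 and 5.98 FPKM, a mean of 3.66 FPKM with replicate 3 above the others.

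The deposited table assigns 1553 genes to families of transcription factors, and 818 (52.7%) were expressed, with a median of 1.19 FPKM, close to the 52.3% and 1.33 FPKM of all protein-coding genes. Behind HMGA1 came YBX1, a cold shock domain protein, at 407 FPKM, and FOSL1, the FRA1 subunit of AP-1, at 272, 268 and 272 FPKM. CNBP, a zinc finger protein that binds single-stranded nucleic acid, had 184 FPKM, and ATF4 had 156 FPKM. ID1, which blocks basic helix-loop-helix factors, had 129 FPKM, and the chromatin protein HMGB2 had 113 FPKM. NFE2L1, a regulator of proteasome genes, had 98.3 FPKM, and CEBPB, a factor of inflammation, had 91.6 FPKM.

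Families of factors differed in how many members were on. Of 48 basic leucine zipper (bZIP) genes, 35 (72.9%) were expressed and 0 were at 0 in all libraries. Of 193 homeobox genes, 32 (16.6%) were expressed and 91 were at 0. The HOX genes, which set position along the body axis, had 2 of 39 expressed, led by HOXB9 at 10.4, 9.76 and 9.50 FPKM. The highest homeobox gene was PITX1, a factor of hindlimb formation, at 31.0 FPKM. Among forkhead genes FOXM1, a driver of mitotic genes, led with 55.6 FPKM, and among ETS genes ETS1 led with 48.2 FPKM.

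The share of protein-coding genes that were expressed varied little between chromosomes. It lay between 47.1% on chromosome 11, which holds many olfactory receptors, and 57.6% on chromosome 10, except for 41.4% on X and 42.0% on chromosome 21.

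The spread between replicates was small and depended on level. The median coefficient of variation (CV, the SD as a percentage of the mean) was 5.60% over the 11985 expressed genes. The median counting error of these genes, the square root of the mean of 1 over the reads, was 3.77%. With counting as the only source of spread, the median CV of so few libraries tends to be lower than the counting error. The 3.77% is therefore not the median CV that counting alone would give, but lies above it. Without replicate 1 the median CV was 3.65%, from the 2 libraries left. It was 7.01% at 1 to under 10 FPKM, 4.22% at 10 to under 100 FPKM and 5.07% at 100 to under 1000 FPKM. Counting error fell over the same levels from 5.53% to 2.39% and 1.05%, so that abundant genes varied mostly beyond it. The highest library was 1.5 times the lowest or more for 703 genes (5.87%), but for only 28 of the 4826 genes at 10 FPKM or more.

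Genes often used as reference ranged widely in CV. YWHAZ, a 14-3-3 protein, was the steadiest of 20 at 1.36%, followed by LDHA at 2.42% and GAPDH at 2.96%. ACTB had 3.89%, POLR2A had 8.26% and TBP, the TATA-binding protein, had 12.6%, with 10.6, 8.22 and 9.32 FPKM. The lowest CVs among protein-coding genes at 10 FPKM or more belonged to RNF4, a ubiquitin ligase, at 0.0804%, UTP6 at 0.0852% and EIF2B5 at 0.0869%. TMEM50A and NOL6 followed at 0.130% and 0.138%. All 5 lie below their counting errors of 1.803% to 2.53%, so their order carries no information.

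In the 10 most variable of the 4628 protein-coding genes at 10 FPKM or more, replicate 1 was the highest or the lowest library. MT-ND4L measured 1242, 1985 and 1783 FPKM, a CV of 23.02%, and MT-ND5 and MT-ATP8 had CVs of 19.6% and 17.9%. Replicate 1 was the lowest library for these mitochondrial genes and for DST, a very long cytoskeletal linker gene, at 8.48, 10.7 and 12.1 FPKM. It was the highest for HES1, a target of Notch signalling, at 17.3, 12.8 and 11.9 FPKM, and for ID3, an inhibitor of helix-loop-helix factors, at 23.6, 17.7 and 17.8 FPKM. It was also the highest for JOSD2, ZNF428 and S100A4, and for SAA1, an acute-phase protein, at 400, 288 and 330 FPKM. Among these 10 genes replicate 1 was highest for 6 and lowest for 4. Over all 11985 expressed genes it was highest for 5271 and lowest for 3792, so this place is common for replicate 1.

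The difference of replicate 1 from the other libraries followed gene length. The median log2 ratio of replicate 1 to the mean of replicates 2 and 3 was 0.16 for protein-coding genes under 1000 bases and 0.14 for those of 1000 to 2000 bases. It fell through 0.08 and 0.01 to -0.07 for genes of 8000 bases and over. Replicate 1 was the highest library for 79 of 84 expressed cytosolic ribosomal protein genes, with a median log2 ratio of 0.15, and for 69 of 79 nuclear genes of the respiratory chain, with 0.14. The 13 mitochondrially encoded genes went against their short length, with a median of -0.32, and replicate 1 was the lowest library for 12 of them. Over all expressed genes replicate 1 was the highest library for 44.0%, replicate 2 for 32.8% and replicate 3 for 23.2%. The part of gene length in the single values above was not tested.

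**Figure D5:**
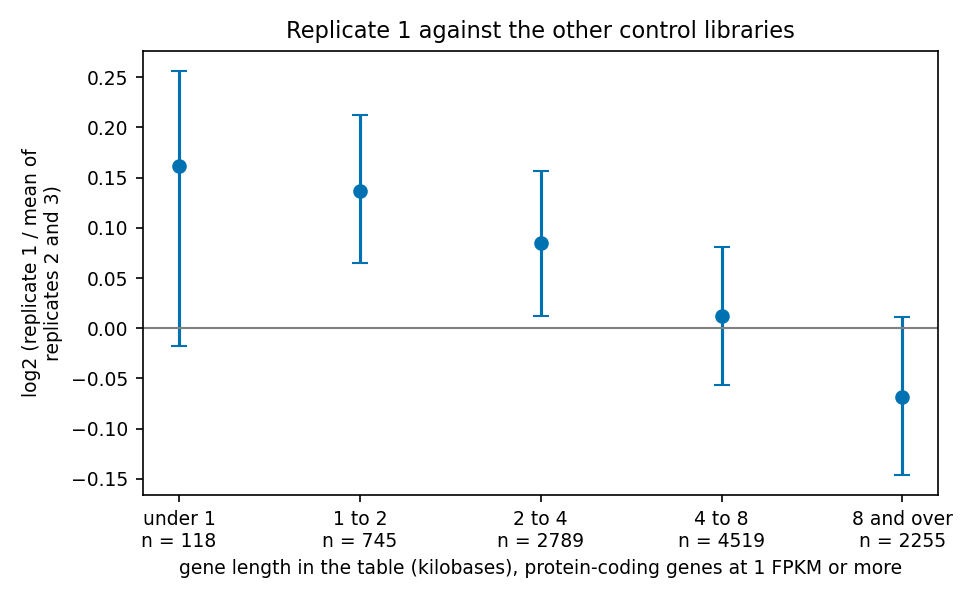
Median log2 ratio of replicate 1 to the mean of replicates 2 and 3, by gene length in kilobases, for protein-coding genes at 1 FPKM or more, with bars from the lower to the upper quartile and the number of genes under each point. The medians fall from 0.16 for genes under 1 kilobase to -0.07 for genes of 8 kilobases and over.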

How the data were processed

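Gene levels of 3 polyA RNA-sequencing libraries of unirradiated MDA-MB-231 cells (shSCR, 0 Gy) were described. Samples were grouped by the treatment in their labels, and the 3 columns of values of the 10 Gy libraries were not used. The deposited values are FPKM, computed by the sequencing provider of the authors. Aligner HISAT2 and build GRCh38 come from the submitters' processing notes, without a version. The counting program and whether strand was used are not given in the sources used here, so genes that overlap or have near-identical copies are uncertain. The deposited gene lengths equal the summed exons of GENCODE 29 for 99.98% of genes. Every FPKM above 0 gave whole reads (within 0.2 of a whole number) after undoing the division by gene length and library depth. Precision is limited by depth, and intervals cover counting error only.

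Genes were ranked by mean FPKM, with SD over n = 3. Expressed means at least 1 FPKM on the mean. Genes named are the 20 highest protein-coding genes, the 10 highest of other biotypes, the 10 highest transcription factors, the 10 most and 5 least variable at 10 FPKM or more, and the defining, highest and lowest members of 20 lists. Others, such as FTH1, EEF2, the leaders of gene classes, NORAD, SNHG5, GAS5, GPX1 and the genes of silent stretches, were added after their values were seen. Some of these genes are counted in their lists but not reported here. Lists and 25 classes were written from general knowledge. Members and lists were chosen with earlier results of these data known. BAGE and MB21D1 were not found in the table under these symbols. Promoters of 15500 of 19938 nuclear protein-coding genes (77.7%) matched RefSeq (GRCh38.p14), at the start nearest the gene's 5′ end. Both strands of the 50 bases before it were searched for TATAAA. Protein lengths were not used here. Counting error is the square root of the mean of 1 over the reads. Alternatives covered the minimum level, TPM, thinned and recovered reads, median-of-ratios scaling, the pseudocount and each replicate left out. Scripts were tested on simulated data. Python 3.11.15, numpy 2.4.6, pandas 2.3.3, scipy 1.17.1 and matplotlib 3.10.9 were used.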

Additional observations from a re-analysis of the deposited data

How the results depend on the processing

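No paired analysis was possible because a single group of 3 libraries was described and no result comes from a test. Counts of expressed genes follow the minimum chosen. With 0.1, 5 and 10 FPKM in place of 1 FPKM, 19413, 7288 and 4826 genes were expressed, and with 5 and 10 FPKM, 6923 and 4628 protein-coding genes. At 5 FPKM the luminal, basal and junction lists had 7, 3 and 3 members expressed, the receptor tyrosine kinases 12, the cancer-testis, drug efflux and ERBB2 lists 3 each, the endothelial list 2, and the blood, neuronal and melanocyte lists 0. At 0.1 FPKM the 7 classes of mostly tissue-restricted genes had 19. TPM gave 15757 expressed genes, within 1.5 times the count by FPKM. The weight of the top genes depends on length: by reads the 100 highest genes held 16.2% and 1080 genes were needed for 50%, and without mitochondrially encoded genes the 100 highest held 22.04% of FPKM. Ranked by reads, 11 of the 20 highest protein-coding genes stayed, and EEF2, ENO1, FLNA, HMGA1, HSP90AB1, HSPA8, PKM, PLEC and RPLP0 entered. The median CV was 9.27%, 4.57% and 4.30% with a minimum of 0.1, 5 and 10 FPKM. Leaving out each replicate gave 3.65% to 5.31%, the lowest without replicate 1, which counts as moved from 5.60%. The CV of 2 values also tends to be lower than that of 3. Without replicate 2 the neuronal and glial list had 2 members expressed in place of 1. At 0.5 FPKM it had 3. The lowest correlation between libraries was 0.983 on log2(FPKM + 0.1) and 0.989 for ranks. The share of genes at 100 FPKM and over with TATAAA was 10.1% in the whole 300 bases and 7.64% before any RefSeq start of the gene, the latter chosen after seeing the data. Of 161 alternative values computed, 132 stayed close to the reported value and 29 moved. Counts were called close within 1.5 times the reported count, which is a wide margin. Shares, CVs and correlations were called close within a spread of their own, such as the SD between libraries. Leaving out a replicate moved 2 of 87 values. Depth limits genes under 1 FPKM, whose median CV between 0.1 and 1 FPKM was 37.3%.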

Other observations

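Genes of innate sensing were expressed, while IFNB1 and IFNA1 were at 0 and IFNL1 had 3, 1 and 0 reads. IFNB1 and IFNA1 lie in the stretch around CDKN2A where 25 of 25 protein-coding genes were at 0. Their values cannot tell a deleted gene from a silent one. Of 17 genes on the innate sensing and interferon list, 13 (76.5%) were expressed, with a median of 9.17 FPKM, beside 52.3% and 1.33 FPKM for all protein-coding genes. DDX58, which encodes the RNA sensor RIG-I, measured 25.4, 26.2 and 24.5 FPKM, and MAVS, its adaptor, had 20.8 FPKM. CGAS, the sensor of cytosolic DNA, had 16.1 ± 0.425 FPKM (SD, n = 3), and its adaptor TMEM173 (STING) had 9.54 FPKM. Of the receptor for type I interferon, IFNAR1 had 11.9 FPKM and IFNAR2 had 0.222 FPKM.

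On the list of checkpoint ligands and antigen presentation, 14 of 18 genes (77.8%) were expressed, beside 52.3% of all protein-coding genes. NT5E, the surface enzyme CD73, measured 185, 188 and 181 FPKM. B2M, the light chain of class I antigen presentation, had 109 FPKM. HLA-DRA, a class II gene, had 37.8, 35.0 and 29.6 FPKM, and CIITA, its activator, had 1.11 FPKM. CD274, the ligand PD-L1, had 6.60 ± 0.366 FPKM (SD, n = 3), and VTCN1 was at 0.

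Of 10 telomere genes, 9 (90%) were expressed, beside 52.3% of all protein-coding genes. DKC1, a protein of the telomerase particle, had 45.9 FPKM and TERT, its catalytic subunit, had 1.29, 1.51 and 1.33 FPKM. TERC, the RNA of telomerase, was at 0 in these polyA libraries. Of 8 drug efflux genes, 5 (62.5%) were expressed, beside 52.3% of all protein-coding genes. ABCC1 led at 18.8 FPKM, while ABCB1, the multidrug transporter, had 0 reads, which allows up to 0.00885 FPKM.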
